A study of Homo sapiens with 2 samples.

Results

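The AP-1 and MAF transcription factors were compared between Ca9-22 cells carrying a DLEU1 lentiviral vector and Ca9-22 cells carrying a control vector. The members were the non-control probes whose gene name was FOS, FOSB, FOSL1, FOSL2, JUN, JUNB, JUND, ATF3 or MAF, and the rule itself reads only these names. They made up 12 of 58201 probes and 9 of 43317 gene names, and all 12 probes were well above background on both arrays. Ca9-22 is an established oral squamous cell carcinoma line, and DLEU1 is a long noncoding RNA that the study delivered as a full-length cDNA, against an empty vector. Both cultures were selected with blasticidin (6 mg/ml in the labels) for 2 weeks, and the total RNA of each culture, labelled with Cy3, was read on an Agilent array of its own. With 1 array per group there was no replicate and no test, and every value below describes these arrays only.

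AP-1 is a family of leucine zipper transcription factors built as pairs of proteins. FOS family proteins (FOS, FOSB, FOSL1, also called Fra-1, and FOSL2, also called Fra-2) need a JUN family partner, whereas JUN, JUNB and JUND can also pair among themselves. The pairs bind short palindromic sites in promoters and enhancers, and many are induced within minutes of growth factor or stress signals. ATF3 is a stress-induced relative that pairs with JUN proteins, and MAF binds a longer site that contains the AP-1 core. In stratified epithelium AP-1 sites lie in the promoters of cornified envelope genes, FOSL1 is known for its link to motility and invasion in squamous cancers, and MAF is known to promote epidermal differentiation.

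Each member was read by 1 probe of 60 bases, except ATF3, which had 4. The first 30 bases of the probes of the 5 members that differed at least 2-fold are shown, since the calls of those members rest on them (5′ to 3′, in the sense of the transcript, genome build hg19). For ATF3, both the brightest probe and the probe with the smallest difference are given.
FOSL1, probe A_23_P161624, chr11:65660128-65660157, minus strand: ctggcctctctagcacaatttgcactaaat
JUNB, probe A_24_P241815, chr19:12902998-12903027, plus strand: gctttgtcaaagccctggacgatctgcaca
MAF, probe A_23_P397376, chr16:79628288-79628317, minus strand: attattattatttgcagtcatggagaacca
FOSL2, probe A_23_P348121, chr2:28637175-28637204, plus strand: tgggactggaagtgacctgtacaagtgatg
ATF3, probe A_23_P34915, chr1:212793856-212793885, plus strand: gatgtcaatagcattgtttttgtcatgtag
ATF3, probe A_33_P3214096, chr1:212792519-212792548, plus strand: aagaagagggtctgcattttcctaaaccca

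Of the 9 members, 8 were higher with the DLEU1 vector (7 when the spike-in RNA was set equal, FOS then being lower) and 1, FOSL1, was lower. JUNB, MAF, ATF3 and FOSL2 were at least 2-fold higher and FOSL1 was at least 2-fold lower. Over all 20246 genes detected on both arrays, 9.18% were higher by 2-fold or more, 9.78% were lower by as much, and 45.8% lay above 0. At a 3-fold limit 2 members (JUNB and MAF) were higher, against 3.82% of all genes, and FOSL1 was lower, against 3.31%. At a 1.5-fold limit 5 members were higher, JUND being the one added, against 18.4% of all genes, and FOSL1 was lower, against 22.0%. The median log2 difference of the 9 members was 0.88, and that of all genes was -0.07. Levels are log2 signals relative to the 75th percentile of the array, differences are DLEU1 vector minus control vector, and the error given is the error estimate of the scanner software for the signals, which holds no variation between cultures. Setting the spike-in RNA equal on both arrays shifted the median of all genes by -0.46 relative to the main scaling. That scale rests on 8 spike-in probes, whose log2 differences before scaling ran from -0.19 to 0.55 (median 0.43). On that scale 2 members (JUNB and MAF) passed 2-fold upwards and 1 downwards, and FOS changed sign to -0.16, while 4.56% of all genes passed 2-fold upwards and 24.1% downwards.

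**Figure D1:**
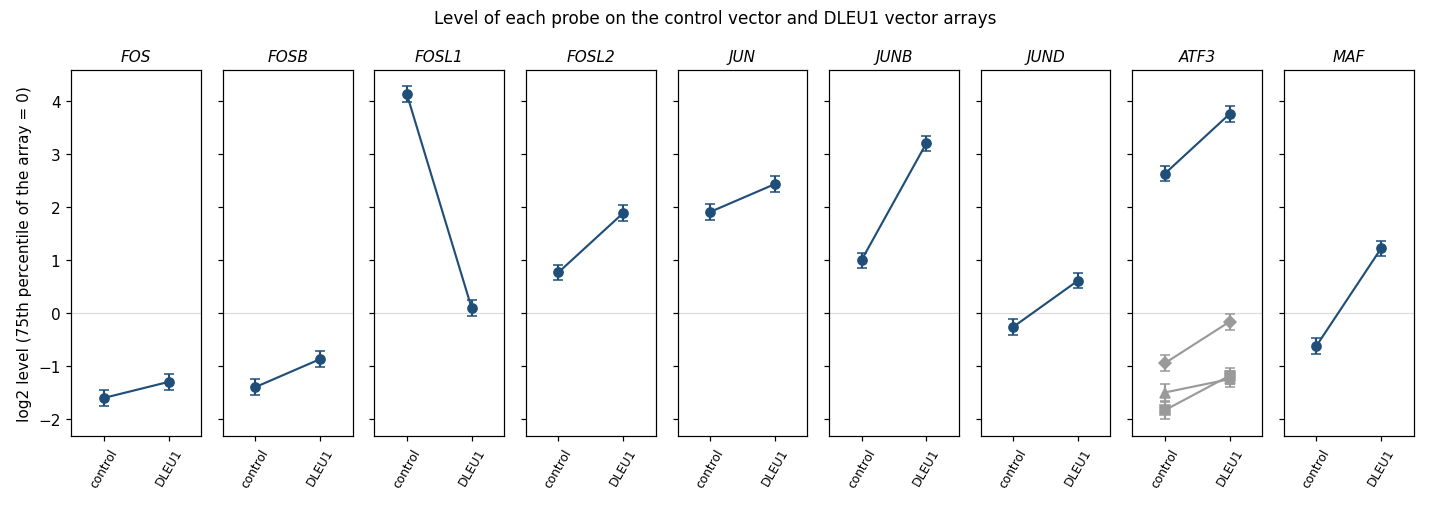
Log2 level of each probe on the control vector and the DLEU1 vector array, in 1 panel per gene, with the 75th percentile of the array at 0. Points are single arrays, bars are the software's error, blue marks the probe that stands for the gene, and grey marks the other 3 ATF3 probes. FOSL1 is lower with the DLEU1 vector and every other probe is higher on this scale (FOS is lower with the spike-in RNA set equal), and heights of different probes are not comparable.

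FOSL1, which encodes the Fra-1 subunit, had the largest difference of the group in either direction. With the control vector its signal was 4262 (log2 level 4.14), and with the DLEU1 vector it was 251 (log2 level 0.09). The difference was -4.05 ± 0.20, a 16.5-fold lower signal, and ranked 9 from the lowest among the 20246 genes. It was many times the SD of 0.080 between replicate spots of a probe, which holds no variation between cultures. The probe lies on chromosome 11 from 65660098 to 65660157 (hg19, minus strand) and begins at base 1202 of transcript NM_005438. Under the 14 other settings the difference lay between -4.51 and -3.73.

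The other FOS family members lay on the opposite side of 0, except FOS with the spike-in RNA set equal. FOSL2, which encodes Fra-2, gave 412 units of signal under the control vector against 874 under the DLEU1 vector, and its difference was 1.12 ± 0.20 (2.18-fold). With normexp background correction it was 1.005, just at the 2-fold limit. FOSB, a member induced together with FOS, had signals of 91.6 and 128.8 in the same order, a difference of 0.53 ± 0.22. FOS, the classical growth factor-induced member, had signals of 79.5 and 95.6, a difference of 0.30 ± 0.22, which is close to the error of the signals. FOS and FOSB were dim on both arrays and stayed below 2-fold under every setting run. The median of the 4 FOS family members was 0.42, from -4.05 for FOSL1 to 1.12 for FOSL2.

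The 3 JUN family members were all higher in the main setting, and under every other setting run, to different extents. JUNB, which can pair with FOS proteins and often opposes the growth-promoting activity of JUN, had the highest difference of the 9 members. Under the control vector its signal was 483 (log2 level 0.996), against 2180 (log2 level 3.21) under the DLEU1 vector, a difference of 2.21 ± 0.20 (4.63-fold). Of all detected genes, 1.62% had a larger value than JUNB. JUND, the member usually present in resting cells, had a signal of 201 and 360 and a difference of 0.88 ± 0.21 (1.84-fold), and 11.1% of genes had a larger value. JUN had a signal of 908 and 1276 and a difference of 0.53 ± 0.20 (1.44-fold), and 20.4% of genes had a larger value. The JUN difference was 0.06 when the spike-in RNA was set equal, whereas that of JUNB was 1.75 on the same scale.

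MAF, the large MAF protein c-MAF, was the other member with a difference well past 2-fold. The probe gave a signal of 157 (log2 level -0.63) under the control vector, against 549 (log2 level 1.22) under the DLEU1 vector. The difference was 1.85 ± 0.21 (3.60-fold), and 2.67% of all detected genes had a larger value. The probe lies on chromosome 16 from 79628258 to 79628317 (hg19, minus strand), begins at base 6305 of transcript NM_001031804 and is listed for NM_005360 as well. MAF stayed at least 2-fold higher under all 14 other settings, from 1.39 with the spike-in RNA set equal to 1.96.

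ATF3 was the only member read by several probes, and they differed in size while sharing a direction on the main scale, although the smallest difference was less than the shift of spike-in scaling. The brightest, A_23_P34915, had a signal of 1497 under the control vector, against 3194 under the DLEU1 vector, and differed by 1.13 ± 0.20 (2.19-fold). The probe A_33_P3214105, which lies further 5′ and is listed for transcript NM_001674 but not for NM_001040619, had signals of 125 and 210 and a difference of 0.78 ± 0.21. A_24_P33895 differed by 0.65 ± 0.22 from signals of 67.6 and 103.6. A_33_P3214096, with signals of 85.4 and 99.04, differed by 0.25 ± 0.22. The latter is listed for the transcripts NM_001040619 and NM_001206486 and not for NM_001674. The mean of the 4 probes was 0.71, below 2-fold, so the 2-fold call of ATF3 rested on the brightest probe. With the mean of the probes 3 members were at least 2-fold higher, against 8.76% of all genes. For comparison, the SD of the difference between probes of the same gene was 0.47, pooled over 4674 genes. The median of this SD over genes was 0.23.

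**Figure D2:**
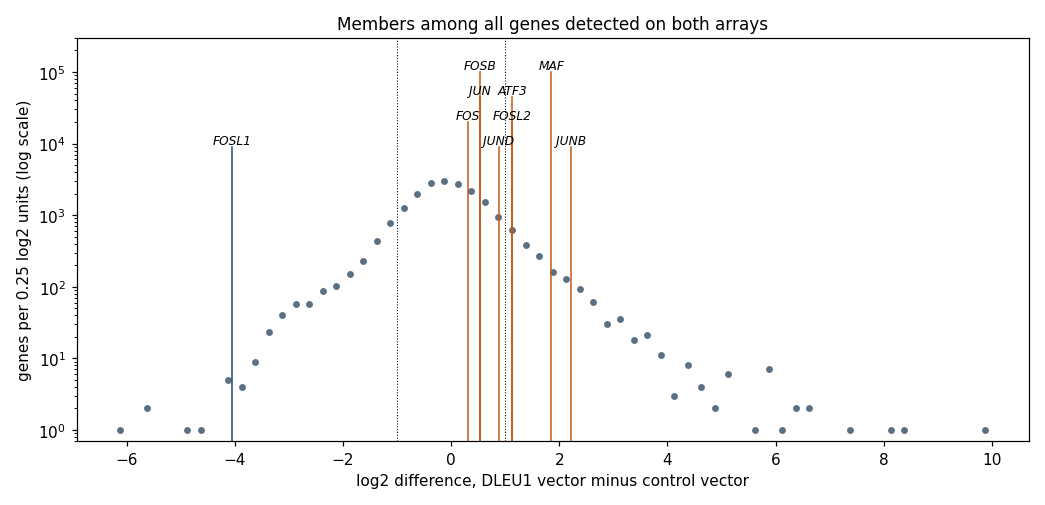
Number of genes (log scale) by log2 difference, DLEU1 vector minus control vector, for the 20246 genes detected on both arrays, with a vertical line at each member. Dotted lines mark 2-fold. FOSL1 lies in the far lower tail at -4.05, and the other members lie between 0.30 (FOS) and 2.21 (JUNB).

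Where a spot sits on the slide can move its value, so the surroundings of the member probes were read. None of the 12 lay in the strip that looked damaged with the DLEU1 vector. There, 35.5% of the spots lit under the control vector were lower by 2-fold or more, against 12.8% elsewhere. The median difference of the 100 nearest lit spots lay between -0.21 and 0.03 for the 12 member probes. Across the 14 other settings JUNB ranged from 1.75 to 2.34, ATF3 from 0.67 to 1.34, FOSL2 from 0.66 to 1.23, JUND from 0.41 to 0.99, FOSB from 0.07 to 0.71 and JUN from 0.06 to 0.67. FOSB and FOS had 13 such settings, because their signal was below 100 on 1 or both arrays. FOS ranged from -0.16 to 0.42 and was the only member to change sign under any setting run.

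**Figure D3:**
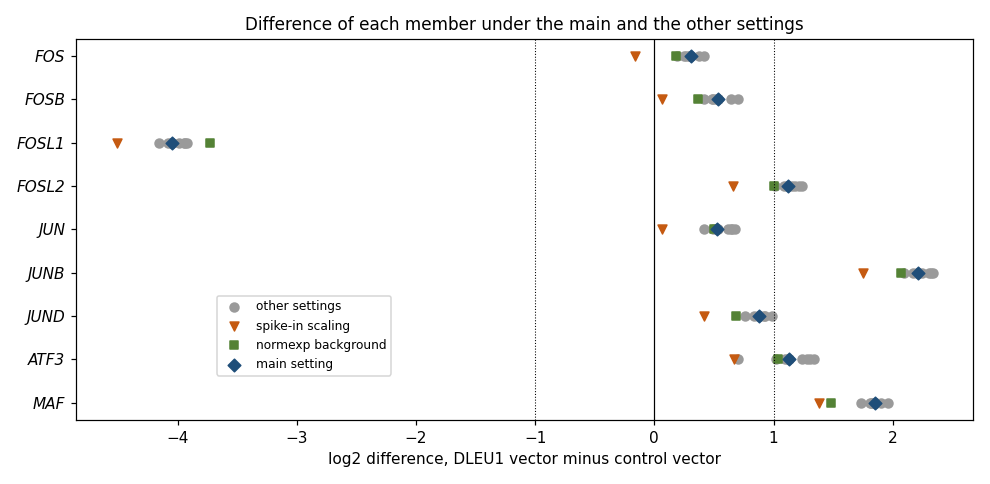
Log2 difference (DLEU1 vector minus control vector) of each member under the main setting (diamonds), with spike-in RNA set equal (triangles), with normexp background correction (squares) and under the other settings (circles). Dotted lines mark 2-fold. JUNB and MAF stay past 2-fold at every point, FOSL1 stays near -4, and FOS crosses 0 with the spike-in RNA set equal.

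To read the promoters of the members, the 250 bases before each gene start were taken from RefSeq (GRCh38.p14), where 8 of the 9 members had an entry in the promoter table used here, ATF3 with 2 entries. The promoter of FOSL1 was not analysed here. The motifs were searched on both strands. TGANTCA is the phorbol ester response element that AP-1 binds. TGANNTCA has a longer spacer and is a looser pattern that takes in the cyclic AMP response element, TGACGTCA, and other central bases. The others were the TATA box letters TATAAA and the CArG box of serum response factor, which can overlap TATAAA. TGANNTCA was found in 4 of the 9 promoter entries (ATF3, JUN, JUND and MAF) and in 10.1% of 35116 promoters of the same length. TGANTCA was found in 0 of the 9 (6.57% of all), TATAAA in 5 (10.7% of all) and the CArG box in 0 (1.16% of all). TATAAA began 30 to 33 bases before the start in FOS, FOSB, JUNB and MAF. In ATF3 it began 230 bases before, in the entry without TGANNTCA. The TGANNTCA letters were TGACATCA in ATF3 and JUN, TGACGTCA in MAF, and TGACGTCA and TGAGCTCA in JUND. The MAF match ended 38 bases and the JUN match 60 bases before the start. These 4 promoters are shown because they hold TGANNTCA matches, which are in capitals (5′ to 3′ in the direction of the gene). A match is a description of the letters in this window and not a bound site. A count of 0 holds for these 250 bases only, and sites further from the start were not searched.
MAF, chr16:79600738-79600987, minus strand: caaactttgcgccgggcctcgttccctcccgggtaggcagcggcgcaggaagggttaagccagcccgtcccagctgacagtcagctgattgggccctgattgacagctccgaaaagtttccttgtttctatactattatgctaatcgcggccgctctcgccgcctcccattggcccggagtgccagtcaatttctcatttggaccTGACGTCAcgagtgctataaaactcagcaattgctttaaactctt
ATF3, chr1:212565157-212565406, plus strand: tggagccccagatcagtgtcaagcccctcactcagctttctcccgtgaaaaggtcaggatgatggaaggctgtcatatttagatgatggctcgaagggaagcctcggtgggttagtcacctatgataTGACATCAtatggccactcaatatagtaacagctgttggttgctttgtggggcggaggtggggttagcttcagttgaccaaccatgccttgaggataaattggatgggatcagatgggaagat
JUN, chr1:58784048-58784297, minus strand: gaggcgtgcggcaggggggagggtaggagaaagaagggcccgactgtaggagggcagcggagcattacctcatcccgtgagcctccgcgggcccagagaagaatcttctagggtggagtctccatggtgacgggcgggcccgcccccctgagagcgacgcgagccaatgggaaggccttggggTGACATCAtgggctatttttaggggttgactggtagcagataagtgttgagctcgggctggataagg
JUND, chr19:18281623-18281872, minus strand: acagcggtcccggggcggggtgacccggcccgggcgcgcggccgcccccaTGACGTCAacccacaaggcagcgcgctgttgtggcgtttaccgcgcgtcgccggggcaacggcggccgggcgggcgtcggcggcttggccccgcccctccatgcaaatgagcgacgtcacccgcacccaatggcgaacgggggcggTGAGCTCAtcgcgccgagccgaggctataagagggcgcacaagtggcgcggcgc

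The genes beside the members on the chromosome were read beside them. Within 100 kb of the FOSL1 probe, 11 other genes were detected on both arrays. Their median difference was -0.57, with a range from -1.85 (DRAP1) to 2.12 (OVOL1). OVOL1, a transcription factor of epithelial differentiation whose probe lies 95.6 kb away, had log2 levels of 1.18 and 3.30. It so differed in the opposite direction to FOSL1, and was the only gene of the 11 above 0. The nearest gene, CCDC85B at 1.32 kb, differed by -1.22, in the direction of FOSL1. FOSL1 itself was further from 0 than any of these 11 genes. BATF3, another AP-1 family gene 66.2 kb from the ATF3 probe, was lower by 2.40 on the log2 scale while ATF3 was higher by 1.13. The BATF3 probe was dim, with log2 levels of -1.23 under the control vector and -3.63 under the DLEU1 vector. Around JUNB, 15 genes had a median of -0.25, from -2.42 (RNASEH2A) to 1.28 (RTBDN). The 7 genes around FOSB had a median of -0.08 and the 7 around JUND a median of 0.39. No other gene detected on both arrays had the probe that stood for it within 100 kb of the FOSL2, JUN or MAF probe. Genes detected on 1 array only were not read here. OVOL1, CCDC85B, DRAP1, RNASEH2A and RTBDN were named after their values were seen.

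**Figure D4:**
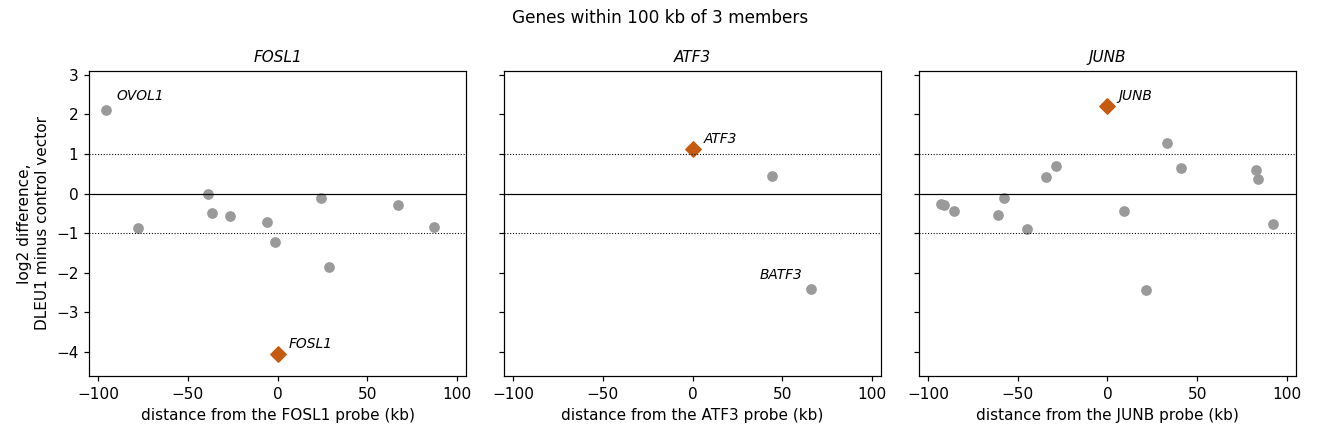
Log2 difference (DLEU1 vector minus control vector) of the genes detected on both arrays within 100 kb of FOSL1, ATF3 and JUNB, by distance of the probe in kb. The orange diamond is the member, grey points are its neighbours, and dotted lines mark 2-fold. OVOL1 (2.12) and BATF3 (-2.40) lie on the opposite side of 0 to the member beside them. So do several neighbours of JUNB, the lowest being RNASEH2A (-2.42). The other neighbours of FOSL1 lie below 0, as FOSL1 does.

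Related leucine zipper factors outside the 9 members showed no common direction. Of 22 such genes, 17 were detected on both arrays, 7 above and 10 below 0, with a median of -0.09. NFE2 was the highest at 1.85 and the only 1 at least 2-fold higher, with log2 levels of -1.36 and 0.49. BATF3 (-2.40), ATF5 (-1.73) and NFE2L3 (-1.36) were at least 2-fold lower. The shares of all detected genes were 9.18% at least 2-fold higher, 9.78% at least 2-fold lower and 45.8% above 0. The small MAF proteins MAFF and MAFG, which lack an activation domain, differed by -0.45 and -0.62. MAFK was detected with the control vector only (at least 45.2-fold lower), with its probe in the damaged strip. CREB5 was detected with the control vector only (at least 2.59-fold lower) and BACH2 with the DLEU1 vector only (at least 1.66-fold higher), whereas BATF and NFE2L2 were not well above background on either array.

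The kinases and regulators upstream of AP-1 were similarly spread around 0. Of 28 genes, 27 were detected on both arrays, with a median of -0.09, 9 of them above and 18 below 0. RPS6KA2, a ribosomal S6 kinase activated by ERK, was the only 1 at least 2-fold higher (2.60). FBXW7, part of the ubiquitin ligase that degrades JUN, was the lowest (-1.80), and its probe lay in the damaged strip. MAPK9, which encodes the JUN kinase JNK2, was the other gene at least 2-fold lower (-1.12), whereas MAPK8, which encodes JNK1, differed by 0.61. MAPK10 was detected with the DLEU1 vector only (at least 3.48-fold higher). Among all detected genes, 9.18% were at least 2-fold higher, 9.78% at least 2-fold lower and 45.8% above 0.

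Other immediate-early genes, which share rapid induction with FOS, JUNB and ATF3, lay mostly above 0. Of 19 genes, 14 were detected on both arrays, 11 of them above and 3 below 0, with a median of 0.63. EGR2 (1.76), BTG2 (1.51), NR4A2 (1.24) and SGK1 (1.24) were at least 2-fold higher. Beside these counts, 9.18% of all detected genes were at least 2-fold higher and 45.8% lay above 0. EGR1, induced through serum response factor like FOS, differed by 0.81, ZFP36 by 0.96 and DUSP1 by 0.34. KLF6 was the lowest at -0.89, and IER3 (-0.68) and NR4A3 (-0.52) were the others below 0. EGR3, EGR4, DUSP2, NR4A1 and ARC were not well above background on either array. The median of this list was 0.17 with the spike-in RNA set equal.

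Genes known as AP-1 targets in invasion and growth were split. Of 19 genes, 18 were detected on both arrays. Of these, 5 passed 2-fold upwards and 6 downwards, and the median was -0.58. The shares of all detected genes were 9.18% upwards and 9.78% downwards. The matrix metalloproteinase genes lay at both ends of the list, MMP10 at 5.14 and MMP3 at -3.69, with MMP13 at 2.77, MMP1 at 1.29 and MMP9 at 0.04. HMOX1, the stress-induced heme oxygenase, was also past 2-fold upwards at 1.08. SPP1 (-2.84), TIMP1 (-2.08), IL6 (-1.71), HBEGF (-1.37) and PLAU (-1.30) were the others at least 2-fold lower. CXCL8 was detected with the control vector only (at least 7.85-fold lower).

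Epidermal genes whose promoters are known for AP-1 sites were all higher. All 7 genes detected on both arrays were at least 2-fold higher, from TGM1 (2.49), the transglutaminase that cross-links the cornified envelope, to SPRR3 (9.88), with a median of 5.10. Of all detected genes, 9.18% were at least 2-fold higher. LOR and KRT1 were detected with the DLEU1 vector only (at least 45.2-fold and 1468-fold higher). IVL, which encodes involucrin, differed by 5.84, and FLG, which encodes filaggrin, by 3.52. The IVL probe was dim under the control vector (log2 level -3.23). Whether these levels were connected to those of the members was not tested.

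**Figure D5:**
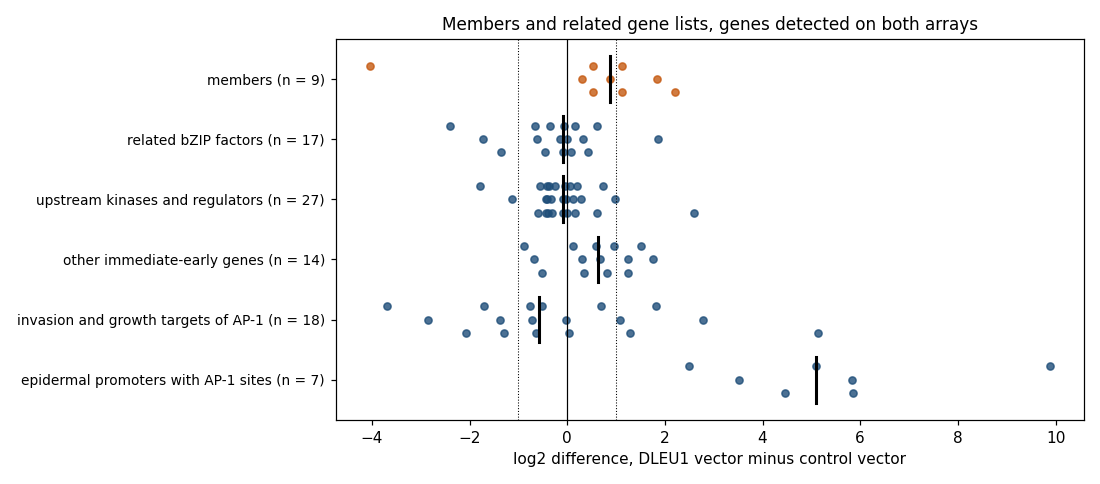
Log2 difference (DLEU1 vector minus control vector) of the 9 members and of the genes of 5 related lists that were detected on both arrays. Each point is a gene, black bars are medians, and dotted lines mark 2-fold. The medians run from -0.58 for invasion and growth targets to 5.10 for epidermal genes, with 0.88 for the members.

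The arrays were checked against their labels. The DLEU1 probe A_23_P151337 had log2 levels of 3.17 under the control vector and 5.91 under the DLEU1 vector (6.67-fold higher). It was the brightest of 3 DLEU1 probes detected on both arrays, and values of the others are not given here. All 8 epithelial markers read (KRT5, KRT14, KRT8, KRT18, KRT17, EPCAM, CDH1 and TP63) were detected on both arrays. Of 10 markers of fibroblasts, leukocytes and endothelium, COL1A1, PTPRC, CD14 and CDH5 were detected on both arrays and LUM with the DLEU1 vector only. COL1A1 was higher by 3.99, whereas COL1A2, COL3A1 and DCN were not well above background on either array, and the part of other cells in the members' values was not tested. In total RNA of a culture, fewer cells of a kind and less RNA per cell cannot be told apart.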

How the data were processed

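RNA from 2 Ca9-22 cultures was measured on 1 SurePrint G3 Human GE v3 array each. Per the file headers, the deposited intensity values were made by the authors with Agilent Feature Extraction 10.7.3.1 (10.7 in the submitters' processing notes), with background subtraction, detrending and surrogate values for dim spots, and were not normalized between arrays. The deposited series values equalled them within 0.497%. Probe positions are on hg19.

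Control and outlier spots were left out. The log2 processed signal was averaged over the spots of a probe, and the 75th percentile of the array was subtracted (7.92 for the control vector, 7.88 for the DLEU1 vector). A probe was detected where most of its spots were marked well above background (47.6% and 48.1% of probes). The brightest probe detected on both arrays stood for a gene. A change was called at 2-fold. A probe detected on 1 array gave a bound against the higher of its own dim signal and the lowest detected signal. The spot SD came from 282 replicated probes. The steps were tested on simulated data.

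All 9 members were named, with the extremes of each list and its genes detected on 1 array. Members and lists were chosen with earlier results of these data known. Some genes of the lists are counted but not reported here by name. Genes named beyond that rule were chosen after their values were seen. Other settings covered scaling, background correction (limma 3.58.1, R 4.3.3), filters, thresholds, probe choice, and, chosen after seeing the data, the damaged strip (array columns 33 to 40, rows up to 112) and the nearest spots.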

Additional observations from a re-analysis of the deposited data

How the results depend on the processing

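Of 124 values of the 9 members under other settings, 76 stayed within 1 spot SD of the main value and 48 did not, and no called member changed sign. FOS, not called, did so with spike-in scaling (-0.16). The number of members called higher was 4 at 2-fold (9.18% of all genes) and 2 at 2-fold with spike-in scaling (4.56%). It was 3 at 2-fold with the mean of the probes (8.76%), 2 at a 3-fold threshold (3.82%) and 5 at a 1.5-fold threshold (18.4%). FOSL1 was the only member called lower under every setting run. Of all genes, 9.78% were at least 2-fold lower in the main setting and 24.1% with spike-in scaling. The cause of the changes was not tested, beyond the constant shift of each scaling. Medians follow in the order members, epidermal genes, invasion and growth targets, immediate-early genes, related leucine zipper factors and upstream regulators. Spike-in scaling gave 0.41, 4.64, -1.04, 0.17, -0.55 and -0.55. Median scaling gave 0.76, 4.99, -0.69, 0.52, -0.20 and -0.20. The 75th percentile over detected probes gave 0.99, 5.21, -0.47, 0.74, 0.022 and 0.022. The rest name only the medians that moved. Quantile normalization gave 5.24 for epidermal genes, -0.43 for targets and 0.85 for immediate-early genes, and loess 5.32, -0.42 and 0.91. Normexp gave 0.69 for members and 4.36 for epidermal genes. A signal of at least 100 left 7 members with 1.12, 6 epidermal genes with 4.78, 14 targets with -0.27 and 11 leucine zipper factors with 0.0038. The mean of the probes gave 0.71 for members, 5.31 for epidermal genes and -0.24 for upstream regulators. No filter gave 5.84 for epidermal genes and 0.34 for immediate-early genes, and detection on at least 1 array gave 5.84 for epidermal genes. Signal over background limits FOS, FOSB and the dim ATF3 probes, which had signals near 100. Among the other genes named, it limits BATF3 and IL6 with the DLEU1 vector (log2 levels -3.63 and -3.46) and IVL with the control vector (-3.23), among others. No paired analysis was possible because each group had 1 array.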
